A study of Mus musculus with 8 samples.

Results

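Claudins, tight junction proteins and desmosome proteins are the 3 classes of gene described here, in the small intestine of mice that carry the Min mutation of Apc. The genes were taken by symbol: claudins (Cldn), zonula occludens scaffolds (Tjp), desmocollins (Dsc) and desmogleins (Dsg) with a number, and Ocln, F11r, Cgn, Marveld2, Marveld3, Jup, Dsp, Pkp1, Pkp2 and Pkp3. The platform annotation gave 42 such genes, read by 72 single-gene probe sets, out of 18194 genes that a probe set reads alone. Of the 42 genes, 31 had a probe set with a mean log2 signal over the filter value of 5.20 and were tested among 13119 genes. The filter value is the 40th percentile of the mean signal of all probe sets and is not a detection limit.

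The 8 arrays came from 4 groups of 2: non-tumour mucosa and tumours of the small intestine, each from control mice, Apc (Min/+)/Spint1 (flox/flox), and from HAI-1 deficient mice, Apc (Min/+)/Spint1 (flox/flox)/Vil-Cre. All mice were C57BL/6, were fed the AIN-76 diet and carried both the Apc mutation and the loxP-flanked Spint1 alleles, so neither group has wild-type Apc. Spint1 encodes HAI-1, a membrane-bound inhibitor of serine proteases, and the villin promoter limits Cre to the intestinal epithelium, so the other cells of the tissue keep the gene. Whether the 2 arrays within a group stand for separate mice, and whether tumours and mucosa share mice, is not in the labels, and the p-values therefore measure the spread among these samples alone, which may be technical. Age and sex were not in the labels either.

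Epithelial cells are sealed to each other by tight junctions and held together by desmosomes. Claudins form the strands of the tight junction, and their mixture sets what passes between cells: some line pores for small ions and water, others close the path. Occludin and the other MARVEL proteins lie in the same strands, JAM-A (F11r) lies beside them, and ZO-1 (Tjp1), ZO-3 (Tjp3) and cingulin (Cgn) join them to the cell's actin. In desmosomes the cadherins, desmogleins and desmocollins, bind across the gap between cells, while plakoglobin (Jup), the plakophilins and desmoplakin (Dsp) tie them to keratin filaments. In the small intestine, claudin-2 is known as a pore of the crypts and claudin-15 as another pore. Desmocollin-3 and plakophilin-1 are best known from stratified epithelia such as skin.

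The sequences upstream of 3 claudin genes are shown because the results turn on these genes. In the probe sets used, Cldn2 and Cldn18 were higher in HAI-1 deficient mucosa and in control tumours than in control mucosa. Cldn15 was lower in tumours. Each line holds the 250 bases before an annotated transcription start, 5′ to 3′ on the strand of the gene, from RefSeq on build GRCm38.p6. The windows are chrX:139800558-139800807 on the plus strand for Cldn2, chr5:136967619-136967868 on the plus strand for Cldn15, and, on the minus strand, chr9:99717268-99717517 for the outer and chr9:99710064-99710313 for the inner of the 2 starts of Cldn18. The inner window lies within the Cldn18 gene, and the other 3 end where their gene begins. Capitals mark matches, on either strand, to 5 short motifs.
Cldn2: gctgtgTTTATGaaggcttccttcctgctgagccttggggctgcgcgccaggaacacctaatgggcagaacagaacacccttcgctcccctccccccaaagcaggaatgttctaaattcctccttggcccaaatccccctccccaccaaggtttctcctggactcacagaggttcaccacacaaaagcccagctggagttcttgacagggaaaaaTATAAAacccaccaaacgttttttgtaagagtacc
Cldn15: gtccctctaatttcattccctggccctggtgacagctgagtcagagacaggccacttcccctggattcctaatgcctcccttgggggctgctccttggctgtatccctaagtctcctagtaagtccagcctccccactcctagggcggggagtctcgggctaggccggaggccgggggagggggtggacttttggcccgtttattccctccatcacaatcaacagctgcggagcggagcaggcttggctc
Cldn18 outer start: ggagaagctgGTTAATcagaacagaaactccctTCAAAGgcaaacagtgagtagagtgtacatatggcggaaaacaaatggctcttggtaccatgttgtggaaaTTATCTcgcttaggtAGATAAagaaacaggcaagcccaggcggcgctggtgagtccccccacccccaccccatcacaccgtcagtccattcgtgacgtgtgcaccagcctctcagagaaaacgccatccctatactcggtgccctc
Cldn18 inner start: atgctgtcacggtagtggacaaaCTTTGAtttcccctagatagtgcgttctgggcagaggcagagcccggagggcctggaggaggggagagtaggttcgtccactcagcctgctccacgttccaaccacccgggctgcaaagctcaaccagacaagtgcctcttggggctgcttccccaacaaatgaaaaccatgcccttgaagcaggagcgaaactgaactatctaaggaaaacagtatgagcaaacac
The motifs were the TATA box core TATAAA, the TCF/LEF core CTTTGA, the HNF1 half-site GTTAAT, the CDX core TTTATG and the GATA core AGATAA. Among all 32851 windows of this length they were found in 12.4%, 13.8%, 6.43%, 10.8% and 9.99%. Upstream of Cldn2 the TATA box core began at position -35 and the CDX core at -244. The outer Cldn18 window held 4 matches, an HNF1 half-site at -240, a TCF/LEF core on the other strand at -217, and GATA cores on the other strand at -146 and on the gene's strand at -131, and the inner one held 1 TCF/LEF core at -227. The Cldn15 window held 0 matches. The windows of the other called genes that had one, Cldn6 and Ocln, are not shown and also held 0 matches. No match in these windows overlapped another. A match is a description of the letters only, and binding was not measured.

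Poly-A spike-in signal, which reports on labelling, was 8.12 to 8.51 log2 on 3 arrays, the second of each group but control tumours. On the 5 remaining arrays it was 6.36 to 7.12. The 18S rRNA signal was 14.60 log2 on the second control mucosa array, 13.63 on the second deficient mucosa array and 7.61 to 10.07 elsewhere. Arrays alike in spike-in signal can thus differ in 18S rRNA signal, as the second deficient mucosa and second deficient tumour arrays did (13.63 and 7.61). The second control tumour array had a Gapdh 3' to 5' ratio of 25.9, against 0.803 to 1.77 elsewhere. Spint1 was 12.87 and 13.00 log2 in control mucosa, 12.46 and 12.25 in deficient mucosa, 12.75 and 13.06 in control tumours and 11.76 and 11.84 in deficient tumours. It was thus lower on every deficient array than on every control array, although neither difference was called (-0.58 ± 0.24 in mucosa, adjusted p = 0.271, and -1.10 ± 0.24 in tumours, adjusted p = 0.779, SE, n = 2 per group). Whether its probe set reads the deleted part of the gene is not known here. Of 9 general epithelial markers, among them Epcam, Cdh1, Krt8, Krt18 and Vil1, 0 were called between deficient and control mucosa by limma (median 0.09 log2). The largest difference was that of Krt18 (0.84 ± 0.22, adjusted p = 0.114), with both deficient arrays above both control arrays. Precision is limited by the number of arrays, and in whole tissue fewer cells of a type and less RNA per cell cannot be told apart.

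**Figure D1:**
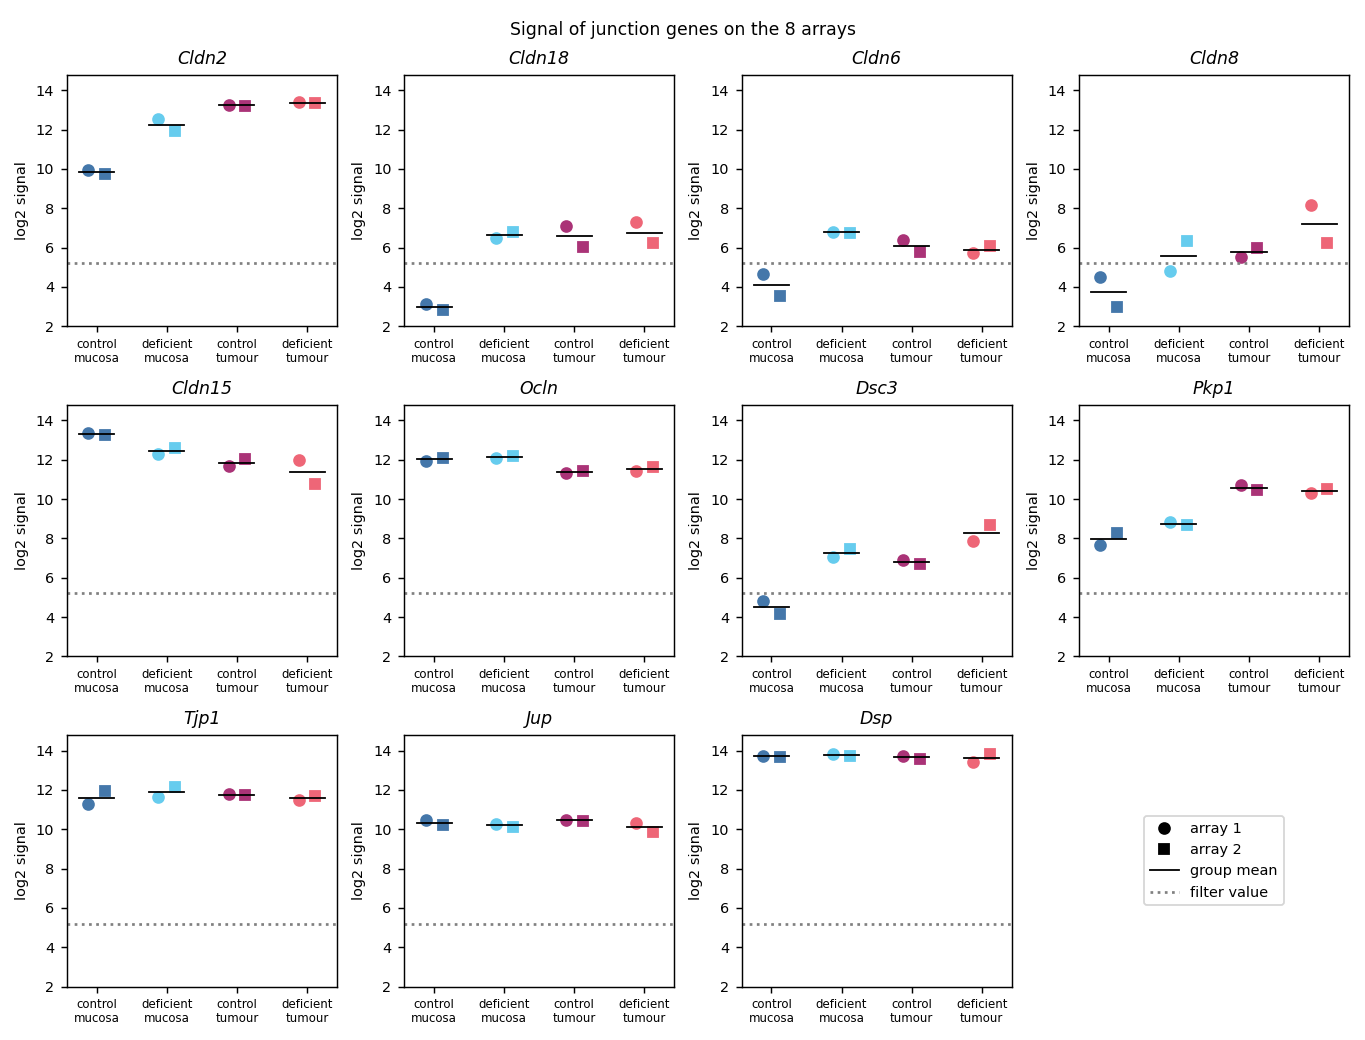
Log2 signal (vertical axis) of 11 junction genes on each of the 8 arrays, by group; circles are the first and squares the second array, bars the mean of 2 arrays, and the dotted line the filter value of 5.20. Cldn2, Cldn18, Cldn6 and Dsc3 sit lowest in control mucosa, Cldn15 sits highest there, and Tjp1, Jup and Dsp lie at like levels in the 4 groups.

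Loss of HAI-1 in non-tumour mucosa went with higher signal of 3 claudins and 1 desmosomal cadherin in the probe sets used. Cldn2 rose by 2.40 ± 0.28 log2 (5.28-fold, SE, n = 2 per group, adjusted p = 0.0348), and Cldn18, Cldn6 and Dsc3 rose at least 2.72-, 2.99- and 4.11-fold. The second probe sets of Cldn18 and Dsc3 differed by -0.23 and -0.26. Of the 31 tested genes 4 rose, 0 fell and 27 were not called. The count is no support in itself, because Cldn18, Cldn6 and Dsc3 passed the filter through the groups in which they were high. Among all 13119 genes 1.05% were called and 0.899% were called higher. The median difference of the 31 genes was 0.15 log2, beside 0.11 for all genes. Regardless of sign, the median size of the difference was 0.26 log2, beside 0.35 for all genes.

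Cldn2, the cation and water pore of crypt epithelium, had log2 signals of 9.94 and 9.72 in control mucosa and 12.55 and 11.91 in deficient mucosa. Control tumours stood at 13.27 and 13.22 and deficient tumours at 13.39 and 13.37. In this probe set the 3 levels do not overlap: control mucosa was lowest, deficient mucosa lay between, and all 4 tumour arrays were highest. The arrays with low and with high spike-in signal gave differences of 2.61 and 2.20 log2 between deficient and control mucosa. Here and for the genes below, each such mucosa value is 1 array minus 1 array. The second Cldn2 probe set did not keep the order of the 3 levels, with 7.64 and 8.06 in deficient mucosa above 6.97 and 5.98 in control tumours. Crypt and stem cell markers were 0 of 9 called by limma in the same comparison (median 0.61 log2), but 8 of the 9 had a difference above 0, with Cd44 at 1.43 ± 0.28 (adjusted p = 0.0623). The exception was Olfm4, at 12.50 and 13.33 log2 in control and 11.38 and 12.59 in deficient mucosa. It weighs heavily in the list's summed signal, which was 10810 to 17200 in control and 10820 to 18300 in deficient mucosa. The part of these cells in the Cldn2 difference was not tested.

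Cldn18, a claudin of stomach and lung epithelium, was at 3.14 and 2.85 log2 in control mucosa and at 6.51 and 6.78 in deficient mucosa. Its tumour values were 7.11 and 6.03 in controls and 7.30 and 6.21 in deficient mice. Only the control mucosa arrays were under the filter value, and the other 6 overlapped across groups. The fitted difference was 3.65 ± 0.46 log2 (adjusted p = 0.0348), given above as a bound because both control arrays were raised to 5.20. Its second probe set did not follow: 6.25 and 5.43 in control against 5.61 and 5.61 in deficient mucosa, a difference of -0.23. Which Cldn18 or Dsc3 transcripts each probe set reads is not known here, so the values of these genes are those of the probe set used. For Cldn18 neither the mean of both probe sets (1.71, adjusted p = 0.226) nor the fit with low values raised to 5.20 (1.44, adjusted p = 0.132) was called. The arrays with low and with high spike-in signal gave 3.37 and 3.94. Stomach markers moved beside it. Of 11 tested, 3 rose, which were the gastrokine Gkn3 (2.67 ± 0.36), the protease cathepsin E (Ctse, 2.28 ± 0.29) and Anxa10 (1.94 ± 0.26). The summed signal of the 13 stomach markers on the array was 3084 to 3216 in control mucosa, 11150 to 16980 in deficient mucosa, 63020 to 64060 in control tumours and 71710 to 81110 in deficient tumours. Of these markers 3 to 4 were under the filter value in control mucosa, and 1, the intrinsic factor gene Cblif, in deficient mucosa. Their part in the Cldn18 difference was not tested.

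Cldn6, a claudin known from embryonic epithelia, was at 4.65 and 3.51 log2 in control mucosa and at 6.81 and 6.76 in deficient mucosa. Control tumours had 6.37 and 5.77 and deficient tumours 5.72 and 6.07. Deficient mucosa thus held the highest 2 of the 8 values. The fitted difference in mucosa was 2.70 ± 0.41 (adjusted p = 0.0395), with 2.16 and 3.24 on the arrays with low and with high spike-in signal.

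Dsc3, the desmocollin of stratified epithelia, was at 4.84 and 4.17 log2 in control mucosa and at 7.04 and 7.44 in deficient mucosa. Its tumour values were 6.90 and 6.69 in controls and 7.87 and 8.66 in deficient mice. The control mucosa arrays were lowest and the deficient tumour arrays highest, with no overlap between any 2 groups. The fitted difference in mucosa was 2.74 ± 0.36 (adjusted p = 0.0348), with 2.21 and 3.27 on the arrays with low and with high spike-in signal. The second Dsc3 probe set read 6.04 and 5.64 in control and 5.85 and 5.31 in deficient mucosa, a difference of -0.26, and the mean of both was not called (1.24, adjusted p = 0.0813). Squamous epithelium markers did not reach the threshold in this comparison (0 of 11 by limma, median 0.57), but 10 of the 11 had a difference above 0. Among them were Krt6a (1.52 ± 0.57, adjusted p = 0.229) and Krt14 (2.50 ± 0.80, adjusted p = 0.169, with a control array under 5.20). The exception was Krt4 (-2.42 ± 1.10, adjusted p = 0.311). The summed signal of the 14 squamous markers was 1184 to 1621 in control and 1693 to 2376 in deficient mucosa. The basal cell factor Trp63 and the keratins Krt1 and Krt13 had a mean under the filter value and were not tested, and the part of such cells in the Dsc3 difference was not tested.

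The groups also did not overlap, with a difference of at least 1 log2, for Cldn8, a barrier claudin of distal gut and kidney. It had 4.52 and 2.99 log2 in control and 4.78 and 6.31 in deficient mucosa, a fitted difference of 1.79 ± 0.79 (adjusted p = 0.298) that was 0.55 with values under 5.20 raised to it. That made 5 of 31 genes, where 12% of all genes met the same condition. Cldn15 stood at 13.39 and 13.25 log2 in control and 12.31 and 12.62 in deficient mucosa, a difference of -0.85 ± 0.39 that was not called (adjusted p = 0.320). The plaque protein gene Pkp1 had 7.65 and 8.27 against 8.83 and 8.66, a difference of 0.79 ± 0.29 (adjusted p = 0.211).

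The remaining 24 genes differed by -0.33 (Marveld3) to 0.55 log2 (Cldn14, 0.26 with low values raised) between deficient and control mucosa. Among the core parts of the junction, the 95% interval of the difference was -0.43 to 1.02 for the scaffold gene Tjp1, -0.43 to 0.65 for Ocln, -0.75 to 0.47 for Jup and -0.49 to 0.65 for Dsp. Changes of 1 log2 are thus outside the interval for Ocln, Jup and Dsp and just inside it for Tjp1, for the probe sets used. The second Ocln probe set differed by -0.57, against 0.11 for the one used. The claudins Cldn3, Cldn4 and Cldn7, which seal or modify the strands of the villus and crypt epithelium, differed by 0.10, -0.13 and -0.08.

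Cldn18, Cldn6, Cldn8 and Dsc3 passed the filter on mean signal through the groups in which they were high, so a count of calls over them is no support in itself. Without the filter all 4 called genes had an adjusted p of 0.130 and 0 were called, and 0 were called without any 1 of the control mucosa, deficient mucosa or control tumour arrays, at fitted differences of 2.08 to 2.72 for Cldn2.

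**Figure D2:**
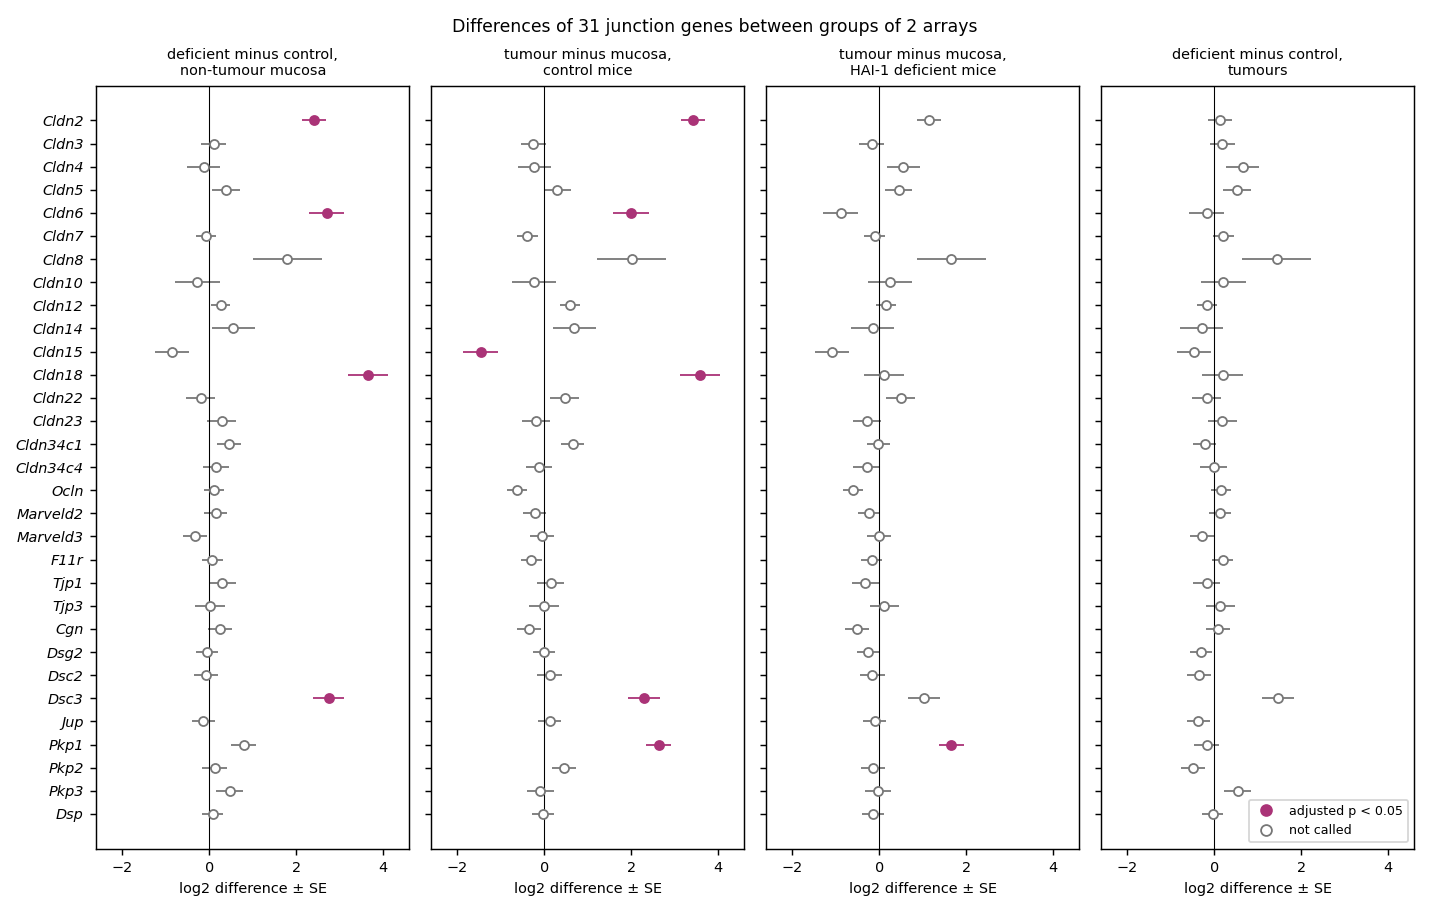
Log2 difference with its standard error (horizontal axis) for the 31 tested junction genes in 4 comparisons of 2 against 2 arrays; filled points have an adjusted p under 0.05. Cldn2, Cldn18, Cldn6 and Dsc3 are filled and to the right of 0 in both the first and the second panel, Cldn15 is the only filled point on the left, the points of Cldn18, Cldn6, Cldn8 and Dsc3 in the first 2 panels rest on control mucosa values under 5.20, and the fourth panel holds 0 filled points.

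Tumours of control mice differed from their mucosa in 6 of the 31 genes, 5 higher and 1 lower. Cldn2 rose by 3.42 ± 0.28 log2 (10.7-fold, SE, n = 2 per group, adjusted p = 0.000867) and Pkp1 by 2.63 ± 0.29 (6.18-fold, adjusted p = 0.00171). Cldn18, Cldn6 and Dsc3 rose at least 2.57-, 1.83- and 3.02-fold, and Cldn15 fell by 1.47 ± 0.39 (2.77-fold, adjusted p = 0.0294). Over all genes 28.8% were called, 21.2% higher and 7.64% lower, so the share of junction genes called, 19.4%, was not above the background. These values are those of the brightest probe set of each gene. The second probe sets of Cldn2, Cldn18 and Dsc3 differed by -0.09, -2.14 and -0.65, and for Cldn18 and Dsc3 both tumour arrays of the second probe set lay below both mucosa arrays. The mean of both Cldn2 probe sets differed by 1.66 log2. This comparison and that of HAI-1 loss in mucosa share the control mucosa arrays.

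In the probe sets used, the pore claudins ran opposite ways. The crypt pore gene Cldn2 went from 9.94 and 9.72 log2 in control mucosa to 13.27 and 13.22 in control tumours. The other pore gene, Cldn15, went from 13.39 and 13.25 to 11.68 and 12.01. For both genes no tumour array reached the range of control mucosa. On the arrays with low spike-in signal alone, control tumours differed from mucosa by 3.30 for Cldn2 and by -1.54 for Cldn15. These values set both control tumour arrays against the first control mucosa array only.

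Markers of enterocytes and of crypts moved in the same comparison. Of 11 tested enterocyte markers 5 fell, among them the brush border enzymes Anpep (-3.17 ± 0.66) and Mep1a (-3.46 ± 0.64), and their summed signal was 244400 to 258000 in control mucosa and 186900 to 201300 in control tumours. Of 9 crypt and stem cell markers 7 rose, including Lgr5 (3.42 ± 0.48) and Cd44 (3.35 ± 0.28), with a summed signal of 10810 to 17200 in mucosa and 45160 to 48230 in tumours. No marker of either list was under the filter value on any of the 8 arrays. The part of these cells in the values of Cldn2 and Cldn15 was not tested.

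Pkp1, the plakophilin of stratified epithelia, was at 7.65 and 8.27 log2 in control mucosa and at 10.69 and 10.47 in control tumours. Deficient mucosa stood at 8.83 and 8.66 and deficient tumours at 10.28 and 10.53. All 4 tumour arrays were above all 4 mucosa arrays. Of 11 squamous markers, 3 rose in control tumours, where 21.2% of all genes were called higher. They were the basal keratin Krt14 (at least 4.84-fold), the cornified envelope gene Sprr1a (2.22 ± 0.57 log2) and the galectin Lgals7 (at least 2.43-fold). The other 8 were not called, with differences below 0 for Sprr3 (-0.98), Krt4 (-0.52) and Sbsn (-0.23). The summed signal of the 14 squamous markers was 3073 to 3623 in control tumours and 4093 to 4466 in deficient tumours, and the part of such cells was not tested.

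The other 25 genes were not called. Ocln, a MARVEL protein of the strands, was at 11.93 and 12.11 log2 in control mucosa, 12.08 and 12.18 in deficient mucosa, 11.32 and 11.45 in control tumours and 11.43 and 11.63 in deficient tumours. Every tumour array was lower than every mucosa array, with differences of -0.64 ± 0.23 in control (adjusted p = 0.0773) and -0.60 ± 0.23 in deficient mice (adjusted p = 0.164). Its second probe set differed by -0.81 and -0.53 in the same comparisons. Averaged over both genotypes Ocln fell by 0.62 ± 0.16 log2 (1.54-fold, adjusted p = 0.0231). This call was lost without the filter (adjusted p = 0.0525) and without the second control mucosa array, the first deficient tumour array, or any 1 of the control tumour or deficient mucosa arrays (-0.57 to -0.65).

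Cldn8 was at 5.52 and 6.00 log2 in control tumours and 8.18 and 6.21 in deficient tumours, and in neither genotype was its tumour difference called (2.004 ± 0.79, adjusted p = 0.0974, and 1.65 ± 0.79, adjusted p = 0.243). With low values raised these fitted differences were 0.56 and 1.44. Averaged over genotypes it rose at least 1.997-fold (1.83 ± 0.56 log2, adjusted p = 0.0388), although its 2 deficient tumour arrays lay further apart than that average and the mucosa and tumour arrays overlapped. The call of Cldn8 was lost without the second control mucosa, first deficient mucosa, first deficient tumour or either control tumour array (1.34 to 1.95), without the filter (adjusted p = 0.0929), with low values raised (0.9977) and with a term for the spike-in level (1.66). In this average Cldn2 (2.28 ± 0.20), Pkp1 (2.14 ± 0.20), Cldn18 (at least 1.67-fold) and Dsc3 (at least 2.47-fold) were higher, and Cldn15 (-1.27 ± 0.28) was lower. That is 7 of 31 genes, beside 35.8% of all genes: 5 higher, beside 25.7%, and 2 lower, beside 10.1%. For Cldn2, Pkp1 and Cldn15 the mucosa and tumour arrays did not overlap at a difference of at least 1 log2, as for 18.2% of all genes. The Cldn18 call was lost with low values raised and with the mean of the probe sets.

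Tjp1 had values of 11.28 and 11.95 log2 in control mucosa, 11.66 and 12.17 in deficient mucosa, 11.79 and 11.74 in control tumours and 11.49 and 11.70 in deficient tumours. Jup was at 10.49 and 10.20, 10.27 and 10.13, 10.496 and 10.43, and 10.31 and 9.88 in the same order of groups. Dsp was at 13.73 and 13.67, 13.81 and 13.75, 13.75 and 13.59, and 13.44 and 13.83. The mucosa and tumour arrays of these 3 core genes overlapped, and the averaged tumour differences were -0.09 ± 0.22, 0.01 ± 0.18 and -0.09 ± 0.17.

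Among the desmosomal cadherins that simple epithelia use, Dsg2 ranged from 13.52 to 14.08 and Dsc2 from 11.87 to 12.67 log2 over the 8 arrays, and neither was called in any comparison in the probe set used. Plakophilins Pkp2 and Pkp3 ranged from 11.18 to 11.98 and from 10.22 to 11.28. The tricellular protein gene Marveld2 stayed within 9.58 to 10.26, the adhesion protein gene F11r within 11.99 to 12.62, the scaffold gene Tjp3 within 10.57 to 11.41 and Cgn within 10.62 to 11.44. Other probe sets of Dsg2 and Cgn did not stay as level: 2 of the 6 for Dsg2 differed by -2.11 and -1.14 between control tumours and mucosa, and the second for Cgn by -1.18. Cldn5, the claudin of endothelium, was at 5.90 to 7.17 and differed by 0.30 ± 0.32 in control tumours, while 6 of 10 tested endothelial markers rose there.

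The call of Cldn15 in control mice was lost without any 1 of the control mucosa or control tumour arrays (-1.30 to -1.63 log2) and without the filter (adjusted p = 0.0751), and that of Cldn6 without the first control tumour array (1.69, adjusted p = 0.0655). The mean of the probe sets ended the calls of Cldn18 (0.72, adjusted p = 0.423) and Dsc3 (0.82, adjusted p = 0.0538).

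In HAI-1 deficient mice 1 of the 31 genes differed between tumours and mucosa. Pkp1 rose by 1.66 ± 0.29 log2 (3.15-fold, SE, n = 2 per group, adjusted p = 0.0329), and the other 30 were not called. Over all genes 4.2% were called, 2.45% higher and 1.75% lower, and the split was 199 higher and 217 lower after quantile normalization. The pairs of arrays with low and with high spike-in signal gave 1.45 and 1.86 for Pkp1. Cldn2 had a difference of 1.15 ± 0.28 (adjusted p = 0.0631), Cldn15 of -1.08 ± 0.39 (adjusted p = 0.146) and Dsc3 of 1.02 ± 0.36 (adjusted p = 0.140), and the arrays of the 2 tissues did not overlap for any of the 3. With Pkp1 that made 4 genes with no overlap and at least 1 log2, beside 16.4% of all genes. Cldn18 differed by 0.11 ± 0.46, with arrays that overlapped, and Cldn6 by -0.89 ± 0.41, with lower values in both tumour arrays. The call of Pkp1 was lost in turn without either control mucosa array, without any of the 4 deficient arrays and without the filter (1.54 to 1.78, adjusted p up to 0.120).

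Between deficient and control tumours 0 of the 31 genes were called by limma, and 1 had an unadjusted p under 0.05. Over all genes 0% were called and 802 had an unadjusted p under 0.05. The gene at an unadjusted p under 0.05 was Dsc3, which was 7.87 and 8.66 log2 in deficient and 6.90 and 6.69 in control tumours (1.47 ± 0.36, adjusted p = 0.779). Cldn8 also had higher values in both deficient tumours (1.44 ± 0.79, adjusted p = 0.779). These were the 2 genes with no overlap and at least 1 log2, beside 4.46% of all genes. For Cldn2 the difference was 0.13 ± 0.28, with a 95% interval of -0.52 to 0.78, and for Cldn18 it was 0.19 ± 0.46, with an interval of -0.89 to 1.27. Their second probe sets gave other values: 1.59 for Cldn2, with both deficient tumours above both control tumours, and 2.80 for Cldn18, also with no overlap. The median over the 31 genes was 0.09 log2, beside -0.01 for all genes.

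The interaction subtracts the mucosal difference between genotypes from the one found in tumours. It was -2.27 ± 0.39 log2 for Cldn2, -3.47 ± 0.66 for Cldn18, -2.88 ± 0.57 for Cldn6, -1.27 ± 0.51 for Dsc3 and -0.97 ± 0.40 for Pkp1. With values under 5.20 raised to it, the interaction was -1.26 ± 0.62 for Cldn18, -1.76 ± 0.40 for Cldn6 and -0.57 ± 0.45 for Dsc3. In the second probe sets its direction was the opposite: 0.31 for Cldn2, 3.03 for Cldn18 and 0.47 for Dsc3. None of the 5 fitted values passed over all genes (adjusted p = 0.254 for the first 3, 0.512 for Dsc3 and 0.524 for Pkp1), and 0% of all 13119 genes did by limma, with 1211 at an unadjusted p under 0.05. The effects of HAI-1 loss in the 2 tissues are therefore not shown to differ for any junction gene, although 5 of 31 had an unadjusted p under 0.05. The unadjusted p was 0.000530 for Cldn2, 0.000899 for Cldn18 and 0.00125 for Cldn6.

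Probe sets of 1 gene did not always follow each other. The second Cldn2 probe set was dimmer, at 6.26 and 6.87 log2 in control mucosa, 7.64 and 8.06 in deficient mucosa, 6.97 and 5.98 in control tumours and 8.26 and 7.88 in deficient tumours. It differed by 1.28 between deficient and control mucosa. With the mean of both, Cldn2 was still called in the control tumours and, at 1.84, in deficient mucosa.

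On the second control tumour array some probe sets stood apart from others of the same gene. A Cldn3 probe set read 8.54 log2 there and 11.14 to 13.09 on the other 7 arrays, while the one used read 13.16 there and 13.17 to 13.78 elsewhere. A Pkp3 probe set read 2.54 there and 7.21 to 9.70 elsewhere, against 10.22 and 10.41 to 11.28 for the one used. The second Cldn18 probe set read 2.08 there and 5.32 to 7.07 elsewhere. This is the array with the Gapdh ratio of 25.9, and the part of RNA quality in these values was not tested. Further probe sets read lower in tumours than the one used: for Marveld3 by 1.09 and 0.93 in control and deficient mice, against 0.05 and 0.00, and for Dsc2 by 0.95 and 0.19.

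**Figure D3:**
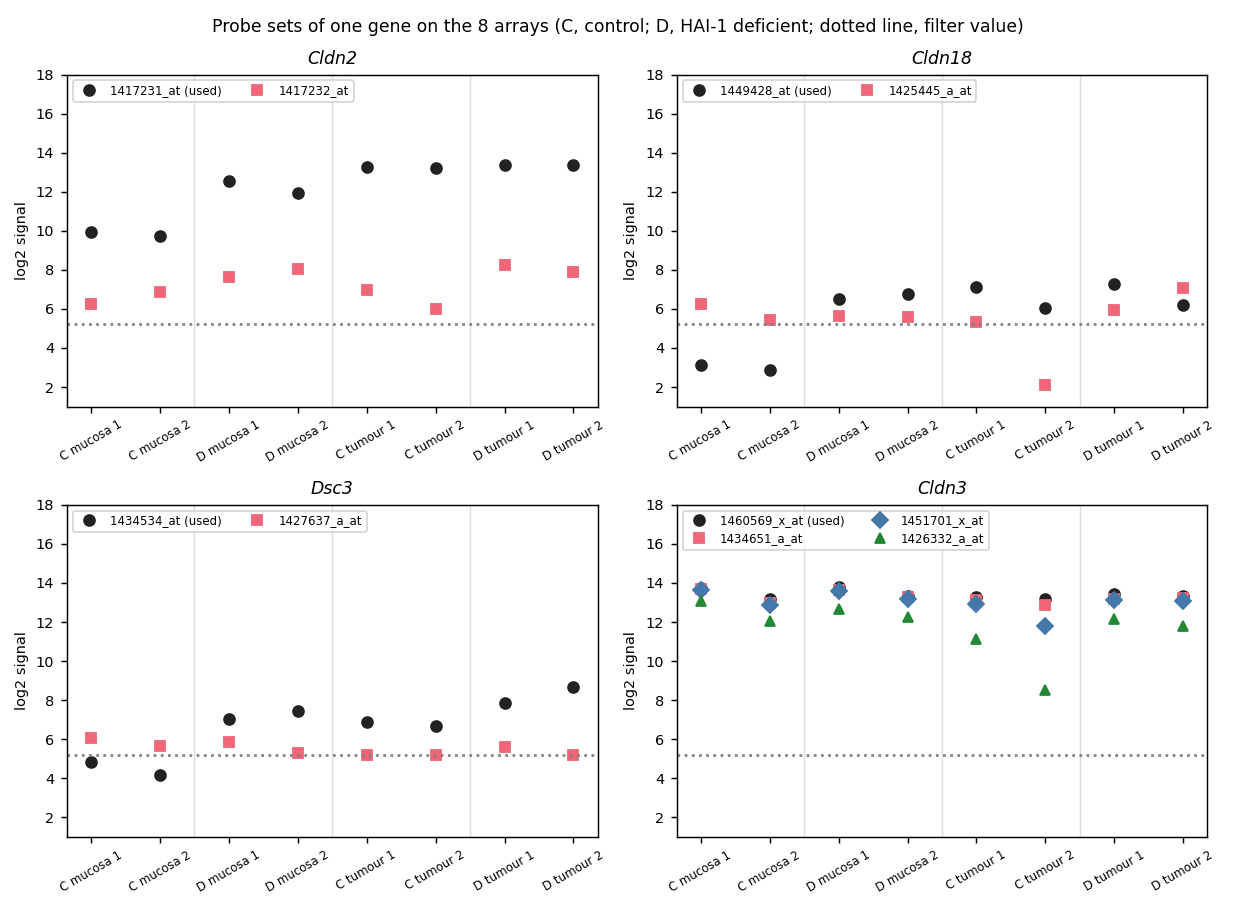
Log2 signal (vertical axis) of each single-gene probe set of Cldn2, Cldn18, Dsc3 and Cldn3 on the 8 arrays, ordered by group; the dotted line is the filter value. The black points, the probe set used, are lowest in control mucosa for Cldn2, Cldn18 and Dsc3, the red ones do not follow in control tumours, and 1 Cldn3 probe set falls to 8.54 on the second control tumour array.

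The 11 genes without a probe set over the filter value were Cldn1, Cldn9, Cldn11, Cldn13, Cldn16, Cldn19, Cldn34b2, Cldn34d, Dsc1, Dsg1a and Dsg1b. Their mean log2 signal in the brightest probe set was 0.72 (Cldn34d) to 4.87 (Cldn1), and single arrays reached 6.46 for Cldn1 and 7.09 for Cldn9, both on the second control tumour array. These genes were not tested. Of the tested ones, Cldn10, Cldn14 and Cldn34c1 had 3, 3 and 4 arrays under the filter value, and Cldn22, Cldn34c4 and Cldn5 lay between 5.33 and 7.17 on all arrays.

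A separate list held other tight junction genes, of which 27 were tested. In deficient mucosa 1 rose and 0 fell (median 0.23 log2), the riser being Ildr1, a protein of the corners where 3 cells meet, at least 2.33-fold (adjusted p = 0.0461). In control tumours 7 rose and 3 fell (median 0.08, beside 0.24 for all genes), where 21.2% of all genes were called higher and 7.64% lower. The rises included the cingulin relative Cgnl1 (2.48 ± 0.43 log2), the endothelial adhesion protein genes Esam (2.56 ± 0.36) and Jam2 (at least 5.27-fold), the scaffold gene Mpdz (at least 5.20-fold) and the angiomotin relative Amotl1 (2.68 ± 0.48). The falls were those of the polarity gene Mpp5 (-1.23 ± 0.34), the adhesion receptor gene Cxadr (-1.10 ± 0.31) and Tjap1 (-1.55 ± 0.41). The summed signal of the 12 endothelial markers was 923.4 to 1209 in control mucosa, 2189 to 3132 in deficient mucosa and 3168 to 5063 in control tumours. Its part in Esam and Jam2 was not tested.

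Of 12 adherens junction genes, 0 were called in deficient mucosa by limma (median 0.02 log2), and in control tumours 1 rose, Nectin4 (at least 2.61-fold), and 1 fell, the phosphatase gene Ptprf (-0.75 ± 0.24). Of 11 desmosome partners and keratins, the keratin Krt23 rose in deficient mucosa (1.91 ± 0.30, adjusted p = 0.0411). In control tumours Krt23 (2.88 ± 0.30), Krt7 (2.23 ± 0.23) and Krt18 (1.81 ± 0.22) rose and 8 were not called. Beside the control tumour counts of both lists, 21.2% of all genes were called higher and 7.64% lower. Between deficient and control tumours 0 of the genes of these 3 lists were called by limma.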

How the data were processed

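Biotin-labelled RNA from 8 samples was hybridised to Affymetrix mouse arrays. The deposited table holds log2 values for 45101 probe sets; the submitters' processing notes name MAS5 and RMA without versions, order or role, and the values are of the MAS5 kind, with no quantile normalization. Detection calls were not used here, so signal over background is not known. Of the probe sets, 34958 had 1 gene in the platform annotation, 932 several and 9211 none.

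Probe sets with a mean under the 40th percentile (5.20 log2, 36.8 linear) were removed, and of the probe sets that read 1 gene alone the brightest on average stood for it. limma 3.58.1 in R 4.3.3 fitted a mean for each of the 4 groups to all 8 arrays (4 residual and 3.52 prior degrees of freedom), with 6 contrasts, two-sided tests and Benjamini-Hochberg adjustment over all 13119 genes; the threshold for a call was an adjusted p of 0.05. Where an array of the lower group was under 5.20, a called change is given as at least so many fold, with each such array raised to 5.20; fitted log2 differences of such genes are no bounds. On data simulated for the comparison of deficient with control mucosa over 13119 genes, the fit recovered 4%, 62%, 80% and 94% of 50 changes each of 1, 2, 3 and 4 log2. Figures were drawn with python 3.11.15 and matplotlib 3.10.9.

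Genes described on every array were those called in any contrast, those with no overlap between the groups and a difference of at least 1 log2 in the mucosa or a tumour contrast, and Tjp1, Ocln, Jup and Dsp. The members and the gene lists were chosen with earlier results of these data known. Alternatives were quantile normalization, other filters, raised low values, the mean of probe sets, a mean-variance trend, fits to only the groups compared, a replicate block, a term for the spike-in level, and each array left out.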

Additional observations from a re-analysis of the deposited data

Results flagged for a closer look

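For 2 junction genes the arrays of the compared groups did not overlap and the direction was opposite in the other setting. Cldn6 differed by 1.99 log2 between tumours and mucosa in control mice and by -0.89 in HAI-1 deficient mice. Both control mucosa arrays were under 5.20, and with low values raised the first difference was 0.87. The test of this difference, the interaction, gave -2.88 ± 0.57 log2 (unadjusted p = 0.00125, adjusted p = 0.254), or -1.76 ± 0.40 with low values raised (adjusted p = 0.256). Cldn12, a claudin expressed in many epithelia, differed by 0.26 log2 between deficient and control animals in mucosa and by -0.18 in tumours, with an interaction of -0.43 that was not called. Groups of 2 arrays are too small for a test of single outlying arrays.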

How the results depend on the processing

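The 25 pairs of a named gene and a comparison were those called or without overlap at a difference of at least 1 log2. Most alternatives could not turn the direction of groups without overlap, so the 0 changes of direction in 404 values are no support. Of these values 332 kept their side of the threshold, 68 lost a call and 4 gained one. A second probe set alone was not among the alternatives. For Cldn18 and Dsc3 it ran the other way in deficient mucosa and in control tumours. In HAI-1 deficient mucosa the 4 called genes became 0 without the filter, 1 at the 60th percentile (21 junction genes tested, Cldn2 called), 2 with the mean of probe sets, 1 (Cldn18) when only the 2 groups at issue were fitted, and 0 to 4 with 1 array left out. In control tumours the 6 became 3 with the 60th percentile filter and 4 to 6 with 1 array left out. Between tumours and mucosa of deficient mice the 1 became 0 without the filter and with only the groups compared. It became 2 at the 60th percentile, with low values raised and with a mean-variance trend. In the average over genotypes the 7 became 4 with the 60th percentile filter and 5 to 8 with 1 array left out; Cldn8 with a block had an adjusted p of 0.05095. The counts for HAI-1 loss in tumours and for the interaction were 0 under all alternatives run. The average and the interaction use all groups, so fits to only the groups compared were not run for them.

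Same-numbered arrays correlated in their deviations from the group means at -0.138 to 0.220. With so few arrays per group, these correlations cannot decide whether the numbers pair the samples. With a replicate block 4, 0, 6, 1, 6 and 0 junction genes were called in mucosa, tumours, control mice, deficient mice, the average and the interaction. The count over all genes in deficient mucosa was 138, with 84 under the block, 0 without the filter, 331 at the 60th percentile, 46 with quantile normalization, 279 with low values raised, 86 with the mean of probe sets, 370 with a trend, 46 with only the groups compared and 0 to 171 with 1 array left out. In deficient tumours it was 551, 321 higher and 230 lower, against 416 with quantile normalization, 199 higher and 217 lower, and 0 to 1000 over all alternatives. Signal near the filter value limits Cldn18, Cldn6, Cldn8 and Dsc3.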
